A study of Danio rerio with 8 samples.

Results

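Axon guidance ligands and receptors are the secreted and membrane proteins that steer growing axons and migrating cells: the semaphorins with their plexin and neuropilin receptors, the ephrins with the Eph receptors, Slit with Robo, and the netrins with Dcc and Unc5. They were taken from the count table by gene symbol, as every row whose name begins with one of these family names, a rule that uses no measured value. The rule gave 62 genes of the 14781 rows. One of them, unc50, shares only its letters with the Unc5 receptors: it is known as a protein of intracellular membranes, and it is kept in the counts and named wherever it matters. The other 61 are 36 ligands and 25 receptors.

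RNA was sequenced from sorted zebrafish tumour cells in 2 groups. The myrAKT group was 4 samples of mCherry-positive ganglioneuroma cells of fish with a myrAKT transgene, which encodes a membrane-anchored AKT kinase. The MYCN group was 4 samples of EGFP-positive neuroblastoma cells of fish with a MYCN transgene. Both tumours arise in the sympathetic nervous system. Transgene, tumour type and the fluorescent protein of the sort changed together, so their parts in a difference cannot be told apart. The labels give neither the promoter of the transgenes, nor the age of the fish, nor how many fish stand behind a sample, and p-values here rest on the differences among these 8 samples alone, which may be technical.

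Guidance works by contact of a ligand on one cell, or secreted by it, with a receptor on another. Slits repel axons through Robo receptors, netrins attract through Dcc and repel through Unc5, secreted class 3 semaphorins act on neuropilins coupled to plexins, most other semaphorins bind plexins directly, and ephrins and Ephs signal in both directions at cell contacts. The same systems guide neural crest cells and sympathetic neurons, and several of them also pattern blood vessels. Levels are given as CPM, counts scaled to the size of each library with TMM factors, which correct for its makeup. CPM is not scaled for transcript length, so levels of a gene are compared between samples. Shares of a family and sums over genes are given as CPM too, and these also depend on transcript length. Log2 fold changes are myrAKT minus MYCN with their standard error, and a gene is called when its edgeR quasi-likelihood p, adjusted over all genes tested, is under 0.05.

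Libraries held between 25948623 and 43083220 counts in myrAKT and between 36984845 and 55827123 counts in MYCN. Markers of catecholamine cells and neurons were present in both groups, as the labels say: dbh, which makes noradrenaline, averaged 1248 ± 377 CPM in myrAKT against 3349 ± 304 CPM in MYCN (SD, n = 4 each). Of 17 tested markers of this lineage 15 were lower in myrAKT and none higher, their summed level was 2123 to 4664 CPM in myrAKT libraries and 9684 to 11310.0 CPM in MYCN libraries, and gap43 had no count in any library. Summed markers of other cell types were higher in all myrAKT libraries. All 16 tested endothelial markers rose, with summed levels of 783 to 972 CPM in myrAKT libraries against 23.9 to 42.9 CPM in MYCN libraries, and none of them was at 0 in a whole group. All 14 leukocyte markers rose, with sums of 17440.0 to 21450.0 CPM in myrAKT libraries against 390.1 to 1194 CPM in MYCN libraries, and none was at 0 in a whole group. Of the tested lymphocyte markers 10 of 11 rose (427.8 to 663.4 CPM in myrAKT, 40.66 to 68.55 CPM in MYCN, pax5 at 0 in MYCN), while rag2 was lower at 13.5 ± 3.88 CPM in myrAKT against 30.9 ± 11.2 CPM in MYCN, and all 10 tested erythroid markers rose (4380.0 to 10480.0 CPM in myrAKT, 42.68 to 158.2 CPM in MYCN, ba1 at 0 in every library). Kidney tubule markers rose in 10 of 11 cases (1237 to 4413 CPM in myrAKT, 26.67 to 53.54 CPM in MYCN, none at 0), stromal markers in 7 of 9 (473.4 to 635.5 CPM in myrAKT, 22.89 to 58.15 CPM in MYCN, pdgfrb at 0 in every library) and glial markers in 6 of 8, with mpz lower (93.78 to 108.6 CPM in myrAKT, 26.32 to 42.43 CPM in MYCN, erbb3b at 0 in MYCN). In RNA from sorted populations, fewer cells of a type and less RNA per cell cannot be told apart. The part of these other cells in the results on guidance genes was not tested.

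**Figure D1:**
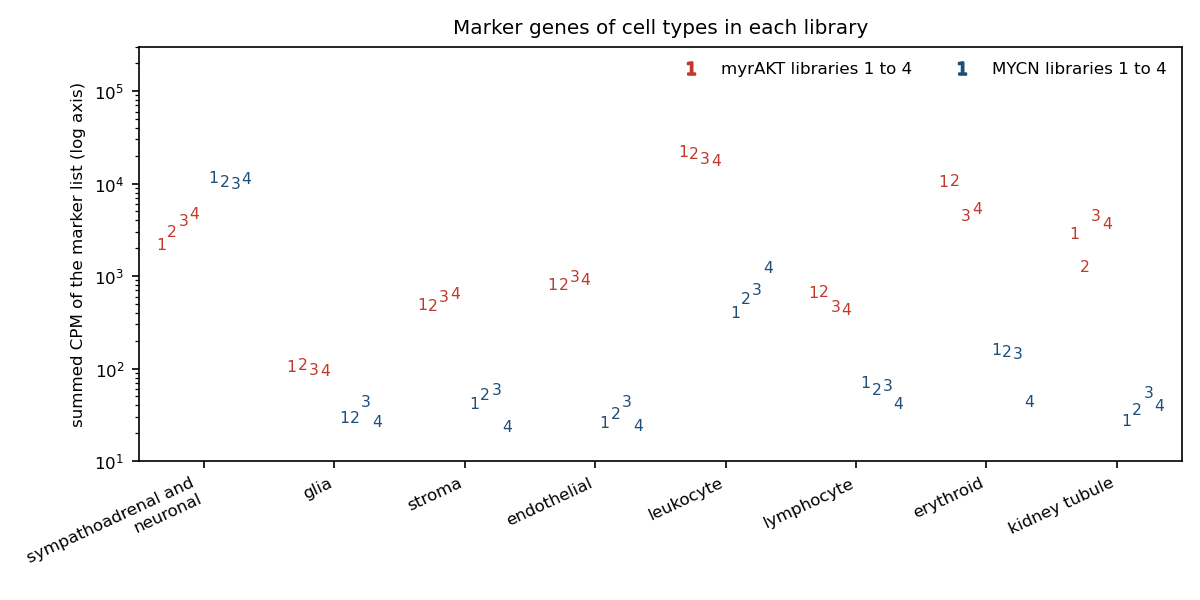
Summed CPM (log axis) of marker genes of each cell type; each digit is 1 library, numbered 1 to 4, red for myrAKT and blue for MYCN. Sympathoadrenal and neuronal markers sum to 2123 to 4664 CPM in myrAKT and 9684 to 11310.0 CPM in MYCN, and the markers of all other cell types sum higher in every myrAKT library than in any MYCN library.

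Of the 62 guidance genes 55 were tested. Of these, 22 were higher in myrAKT, 24 were lower and 9 did not pass, unc50 among the 9 (edgeR adjusted p = 0.194). The comparison of the tumours moved most of the transcriptome, and the share called over all 12126 tested genes was 76.0%, with 37.6% higher and 38.4% lower in myrAKT. The 83.6% called among the tested guidance genes lies near that background. At 2-fold or more 17 of the 55 guidance genes rose, a share near the 29.9% of all tested genes. Of the same 55, 22 fell by as much, a larger share than the 25.2% of all tested genes. That difference was not tested. Library values of the groups did not overlap for 40 of the 55, against 72.5% of all tested genes. The median log2 fold change of the 55 was -0.07, which was 0.30 when libraries were scaled by their totals; that scaling moved the median of all genes to 0.34 against -0.04 with TMM, and the higher share of all calls to 62.2% against 49.5%. The 7 genes not tested were sema3h, sema6a, efna5b, slit1b, ntn1b, ntn2 and unc5a, none above 0.443 CPM in any library, and sema6a and unc5a had no count at all. They are among 732 of the 14781 rows without a count in any library, as are gap43 and ba1. Whether such rows could collect reads was not tested. Ntn2 was at 0.211, 0.146, 0.359 and 0.443 CPM in myrAKT libraries 1 to 4 and had no count in any MYCN library. With the MYCN group set at 3 counts over its 4 libraries the fold is 15.3. That value takes no account of the spread between libraries and was not tested.

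**Figure D2:**
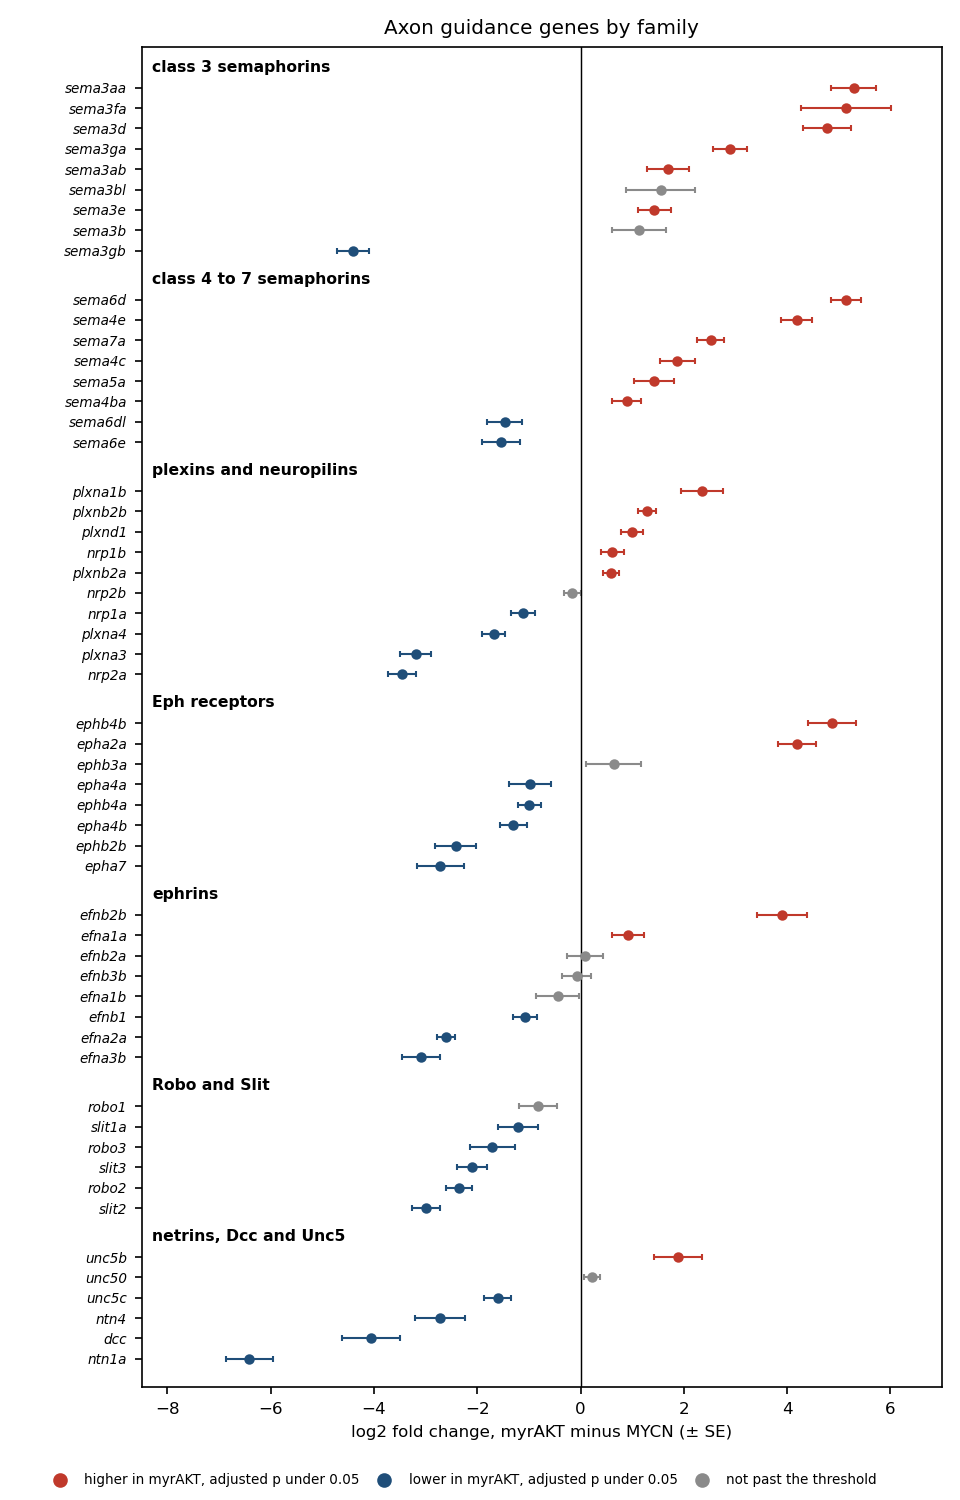
Log2 fold change (myrAKT minus MYCN, ± SE) of the 55 tested guidance genes, grouped by family; red is higher and blue lower in myrAKT at an edgeR adjusted p under 0.05, and grey did not pass. Slit and Robo genes all lie left of 0, 12 of the 17 tested semaphorins are called to the right, and ntn1a at -6.41 lies farthest from 0. Of all tested genes 37.6% are called higher and 38.4% lower.

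Slit and Robo genes were lower in myrAKT. Of all tested genes 38.4% were called lower. Of 6 tested, 5 fell, none rose and robo1 missed the threshold; their median log2 fold change was -1.91, and between -1.51 and -1.91 over the TMM, library total, relative log expression and upper-quartile scalings. Slit3, a secreted Robo ligand, stood at 47.0, 68.5, 91.6 and 113 CPM in myrAKT libraries 1 to 4, against 346, 425, 370.0 and 235 CPM in MYCN libraries 1 to 4. Slit2, the ligand best known for repelling axons at the midline, was at 5.49, 6.87, 9.66 and 10.7 CPM in myrAKT libraries, against 79.0, 76.0, 62.9 and 41.2 CPM in MYCN libraries. For both ligands the lowest MYCN library lay above the highest myrAKT library. The log2 fold changes were -2.10 ± 0.28 for slit3 (edgeR adjusted p = 8.58e-05) and -2.99 ± 0.28 for slit2 (edgeR adjusted p = 6.59e-06). Slit1a averaged 9.91 ± 4.28 CPM in myrAKT against 22.8 ± 10.9 CPM in MYCN, with groups that overlapped (log2 fold change -1.21, edgeR adjusted p = 0.0179), and its call ended without MYCN 1 (adjusted p = 0.0563) and with library totals (0.0945).

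Their receptors were lower too, robo1 apart. Robo2, an axonal Slit receptor, was at 3.97, 4.58, 5.88 and 7.28 CPM in myrAKT libraries, against 34.3, 32.9, 24.2 and 19.0 CPM in MYCN libraries, a log2 fold change of -2.35 ± 0.26 (edgeR adjusted p = 2.02e-05). Robo3, the receptor that lets commissural axons cross the midline, averaged 20.7 ± 13.8 CPM in myrAKT against 67.5 ± 24.5 CPM in MYCN; the myrAKT libraries were uneven, between 9.83 and 40.3 CPM, but stayed below every MYCN library (edgeR adjusted p = 0.00512). Robo1 averaged 8.37 ± 3.38 CPM in myrAKT against 14.7 ± 5.95 CPM in MYCN and did not pass (log2 fold change -0.82, edgeR adjusted p = 0.067), but did so without myrAKT 4 (adjusted p = 0.0332) or without MYCN 4 (0.0137). Summed over the 7 genes of the family, expression was 132.9 ± 53.0 CPM in myrAKT against 541.5 ± 127 CPM in MYCN (SD, n = 4 each). Slit3 made up 60.9 ± 3.79% of that sum in myrAKT and 63.7 ± 5.54% in MYCN.

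**Figure D3:**
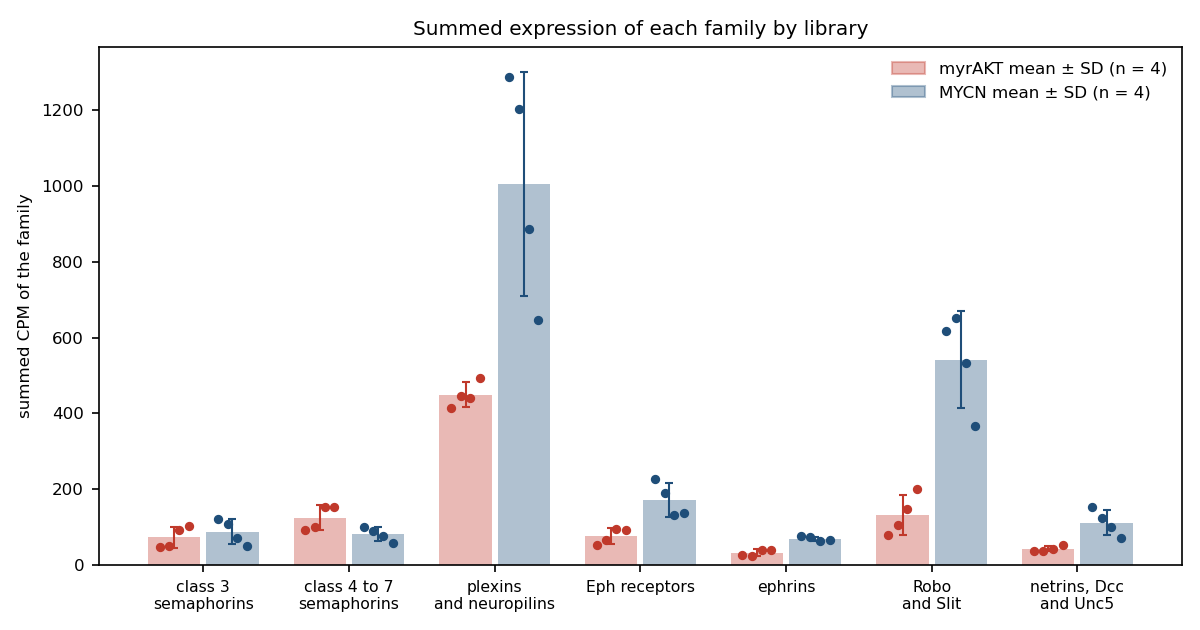
Summed CPM of all members of each family; bars are group means with SD (n = 4 each), points are libraries 1 to 4 from left to right, and myrAKT stands left of MYCN. Slit and Robo genes sum to 132.9 CPM in myrAKT against 541.5 CPM in MYCN, and plexins and neuropilins to 448.8 and 1005 CPM. Class 4 to 7 semaphorins, the family with the higher mean in myrAKT, sum to 124.8 and 81.6 CPM. Class 3 joins them when libraries are scaled by their totals. The netrin, Dcc and Unc5 bars include unc50, no netrin receptor, at mean shares of 42.6% in myrAKT and 15.3% in MYCN.

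Among the netrins and their receptors, the axis of ntn1a and dcc was close to 0 in myrAKT. Ntn1a, the classic axon attractant, was at 0.657, 0.583, 0.427 and 0.570 CPM in myrAKT libraries 1 to 4, against 78.9, 51.6, 38.4 and 22.1 CPM in MYCN libraries 1 to 4. Dcc, the receptor through which netrin attracts, was at 0, 0.0624, 0.157 and 0.127 CPM in myrAKT libraries, against 1.74, 1.85, 1.55 and 0.696 CPM in MYCN libraries. In both genes every MYCN library was above every myrAKT library, and the myrAKT values of dcc rest on at most 7 counts. The log2 fold change of ntn1a was -6.41 ± 0.45 (edgeR adjusted p = 1.27e-06), the lowest of all 55 tested guidance genes, and that of dcc was -4.06 ± 0.56 (edgeR adjusted p = 4.56e-05). Ntn4, a netrin found in basement membranes, averaged 2.29 ± 0.288 CPM in myrAKT against 15.1 ± 7.86 CPM in MYCN (edgeR adjusted p = 5.66e-04); MYCN 4 stood at 3.48 CPM, far below the other MYCN libraries at 17.6 to 20.7 CPM.

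The Unc5 receptors, which mediate repulsion from netrin, went opposite ways. Unc5c fell, with 9.45 ± 3.29 CPM in myrAKT against 28.7 ± 4.32 CPM in MYCN (edgeR adjusted p = 2.57e-04, log2 fold change -1.61 ± 0.25). Unc5b, known also from sprouting endothelium, rose: it was at 11.5, 5.85, 13.5 and 18.8 CPM in myrAKT libraries, against 6.05, 3.88, 1.73 and 1.77 CPM in MYCN libraries (log2 fold change 1.88 ± 0.47, edgeR adjusted p = 0.00432). Here the groups overlapped, myrAKT 2 lying just under MYCN 1. In the same libraries the endothelial markers summed to 783 to 972 CPM in myrAKT and 23.9 to 42.9 CPM in MYCN, and their part was not tested. Over the 6 tested genes of the netrin, Dcc and Unc5 group 4 fell and 1 rose, a called share of 83.3% near the 76.0% of all tested genes. The sixth, unc50, no netrin receptor, was at 18.0 ± 1.77 CPM in myrAKT against 15.4 ± 2.12 CPM in MYCN.

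Semaphorins were mostly higher in myrAKT: 12 of the 17 tested rose, 3 fell, and 2 did not pass the test. Of all tested genes 37.6% were called higher and 38.4% lower. Of the secreted class 3 semaphorins 6 rose, 1 fell and 2 did not pass (median log2 fold change 1.70). Sema3aa, a repellent of sensory and sympathetic axons, was at 7.88, 5.66, 14.4 and 12.2 CPM in myrAKT libraries 1 to 4, against 0.353, 0.269, 0.123 and 0.264 CPM in MYCN libraries 1 to 4. Sema3d, which acts on neural crest cells and axons of zebrafish, was at 2.89, 3.10, 5.64 and 4.72 CPM in myrAKT libraries, against 0.141, 0.119, 0.296 and 0.0240 CPM in MYCN libraries. Neither gene had overlapping groups, and both were near 0 throughout MYCN, with 1 to 15 counts a library. Log2 fold changes were 5.29 ± 0.44 for sema3aa (edgeR adjusted p = 3.40e-06) and 4.78 ± 0.46 for sema3d (edgeR adjusted p = 7.24e-06), the second being 5.43 without MYCN 3. Sema3fa, at 1.96 ± 1.47 CPM in myrAKT, had no count in 2 of the 4 MYCN libraries (log2 fold change 5.15 ± 0.87, edgeR adjusted p = 1.15e-04, and 6.09 without MYCN 3).

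Sema3ga and sema3gb, duplicates of 1 ancestral gene, exchanged places. Sema3ga was at 13.1, 11.3, 16.3 and 17.9 CPM in myrAKT libraries, against 1.15, 3.02, 2.54 and 1.25 CPM in MYCN libraries (log2 fold change 2.89 ± 0.32, edgeR adjusted p = 2.40e-05). Sema3gb was at 3.47, 2.41, 3.62 and 3.64 CPM in myrAKT libraries, against 96.0, 86.3, 54.2 and 40.4 CPM in MYCN libraries (log2 fold change -4.40 ± 0.31, edgeR adjusted p = 1.31e-06). No myrAKT library reached the range of MYCN in either gene. Sema3gb alone held 79.1 ± 2.59% of the class 3 CPM in MYCN, whereas no member exceeded the 26.1 ± 7.38% of sema3b in myrAKT. Of the 9 tested class 3 members 7 were called, a share of 77.8% near the 76.0% of all tested genes. The summed class 3 level overlapped between the groups, at 73.4 ± 28.1 CPM in myrAKT against 87.5 ± 32.7 CPM in MYCN. With library totals the order of these sums turned, to 84.9 ± 35.7 CPM in myrAKT against 77.5 ± 29.4 CPM in MYCN. Sema3e, the ligand of plexin D1, averaged 10.8 ± 3.79 CPM in myrAKT against 4.00 ± 1.25 CPM in MYCN (edgeR adjusted p = 0.00229). Sema3b was at 20.3 ± 11.8 CPM in myrAKT against 9.19 ± 4.73 CPM in MYCN without passing (edgeR adjusted p = 0.0724), a result that crossed the threshold with DESeq2 (0.0273), library totals (0.0304), without myrAKT 1 (0.0265) or without MYCN 1 (0.0484). Sema3bl did not pass either (edgeR adjusted p = 0.0583), though it did with library totals (0.0301), without myrAKT 2 (0.0276) or without MYCN 2 (0.0469).

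The membrane-bound semaphorins of classes 4, 5 and 7 rose without exception among the 5 tested, and class 6 was divided. Sema4e was at 30.8, 24.5, 42.8 and 32.7 CPM in myrAKT libraries, against 1.39, 1.04, 1.82 and 2.85 CPM in MYCN libraries (log2 fold change 4.18 ± 0.31, edgeR adjusted p = 1.55e-06). Sema6d was at 14.4, 16.4, 16.3 and 14.7 CPM in myrAKT libraries, against 0.683, 0.448, 0.468 and 0.144 CPM in MYCN libraries. It had the smallest adjusted p of all guidance genes, with a log2 fold change of 5.14 ± 0.30 (edgeR adjusted p = 4.12e-07), and its myrAKT libraries differed little from each other. Sema6dl and sema6e went the other way: sema6dl was at 11.6, 8.14, 18.4 and 20.6 CPM in myrAKT libraries, against 57.1, 44.3, 36.3 and 24.5 CPM in MYCN libraries (edgeR adjusted p = 0.00258). Sema6e was at 2.96, 6.70, 9.97 and 10.96 CPM in myrAKT libraries, against 21.6, 28.9, 23.9 and 14.2 CPM in MYCN libraries (edgeR adjusted p = 0.00378). Their groups did not overlap, but the gap was narrow in both. Names are those of the deposited table: in RefSeq the symbol sema6d now stands for the gene once called sema6dl and is also an older symbol of sema6ca, so which gene the row named sema6d counted was not settled here. Sema6e is sema6cb in RefSeq, so sema6d and sema6e may be duplicates of each other. The duplicate pairs below were taken by the deposited names alone and leave them out. Of the others, sema7a, a lipid-anchored semaphorin also found on lymphocytes, averaged 10.5 ± 2.48 CPM in myrAKT against 1.81 ± 0.485 CPM in MYCN, and sema4c, a ligand of plexin B2, 23.4 ± 9.55 CPM in myrAKT against 6.38 ± 1.83 CPM in MYCN. Sema5a and sema4ba rose by 1.43 and 0.89 on the log2 scale. The groups of sema5a overlapped, MYCN 4 at 8.49 CPM lying above myrAKT 1 at 7.72 CPM. Lymphocyte markers summed to 427.8 to 663.4 CPM in myrAKT and 40.66 to 68.55 CPM in MYCN in these libraries, and their part was not tested.

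**Figure D4:**
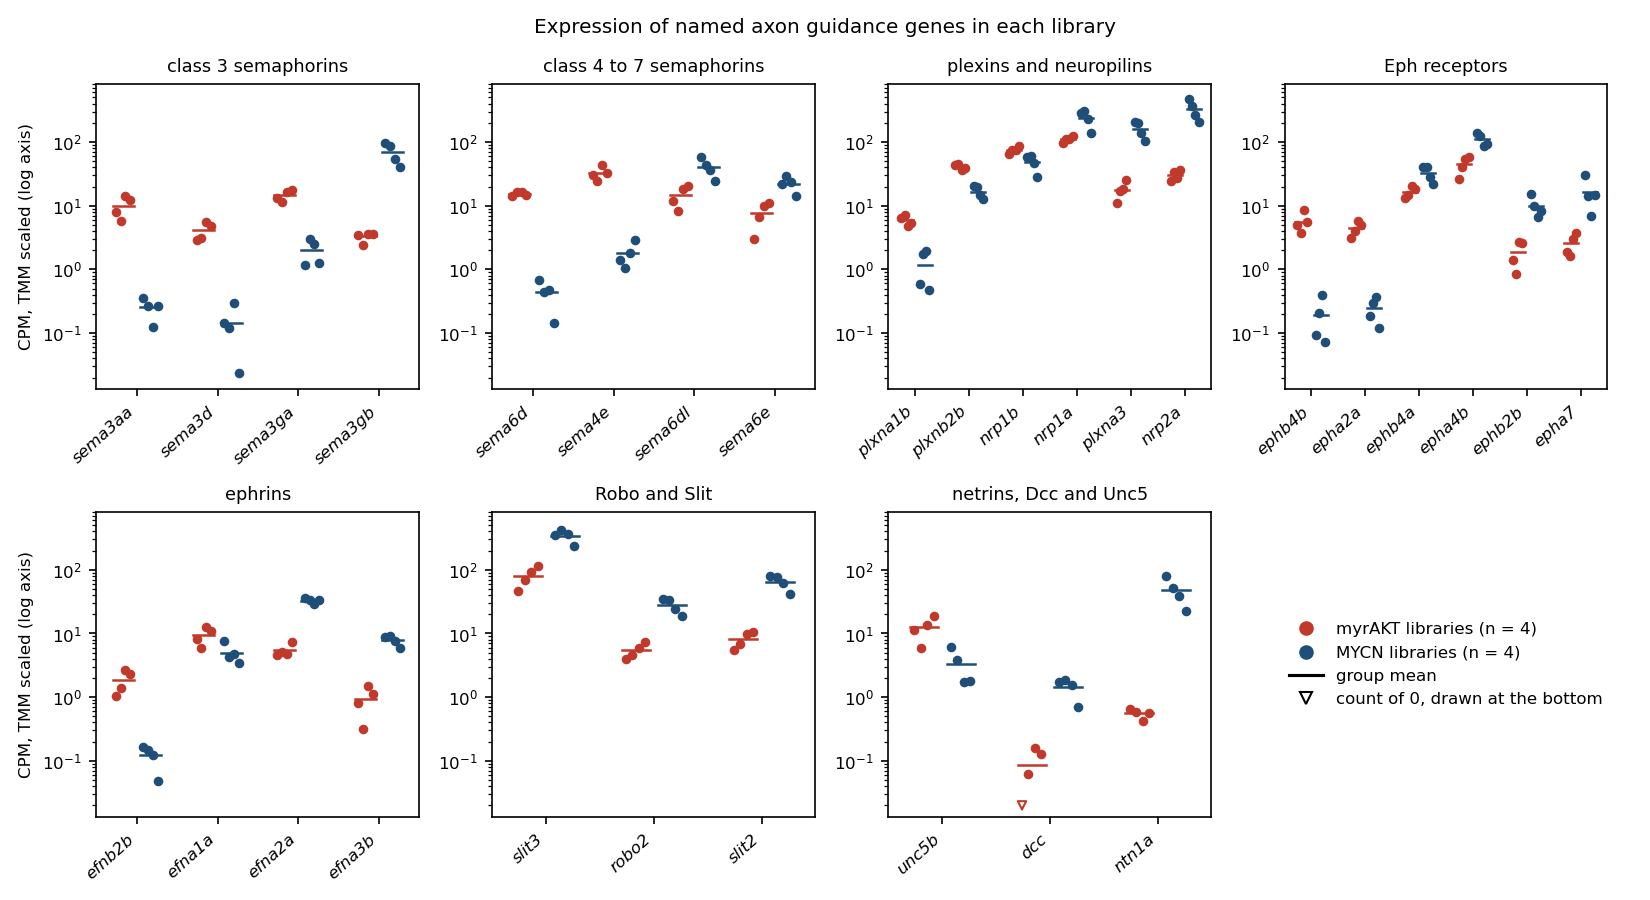
CPM (log axis) of 30 guidance genes in every library, by family; red points are myrAKT and blue points MYCN, in the order of libraries 1 to 4 within each cluster, the line is the group mean, and an open triangle is a count of 0. Ntn1a is below 1 CPM in all myrAKT libraries and above 20 CPM in all MYCN libraries, and sema6d is above 14 CPM in all myrAKT libraries and below 1 CPM in all MYCN libraries.

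Receptors of the semaphorins went both ways, also within a class. Of the 3 tested class A plexins, plxna3 and plxna4 fell, whereas plxna1b, both class B plexins and plxnd1 rose. Plxna3, which transmits class 3 signals in motor and sensory axons, was at 10.9, 17.3, 18.2 and 25.1 CPM in myrAKT libraries 1 to 4, against 207, 200.4, 139 and 105 CPM in MYCN libraries 1 to 4. Plxna1b was at 6.52, 7.22, 4.76 and 5.38 CPM in myrAKT libraries, against 0.589, 1.73, 1.95 and 0.480 CPM in MYCN libraries. Plxnb2b, a receptor of class 4 semaphorins, was at 43.2, 44.4, 36.2 and 38.5 CPM in myrAKT libraries, against 20.0, 19.3, 14.6 and 12.6 CPM in MYCN libraries. All 3 separated the groups fully. Their log2 fold changes were -3.19 ± 0.30 for plxna3 (edgeR adjusted p = 7.93e-06), 2.36 ± 0.40 for plxna1b (edgeR adjusted p = 4.32e-04) and 1.29 ± 0.17 for plxnb2b (edgeR adjusted p = 8.04e-05). Plxna4 averaged 34.2 ± 9.79 CPM in myrAKT against 109 ± 21.8 CPM in MYCN, and plxnb2a 28.2 ± 4.86 CPM in myrAKT against 18.7 ± 2.39 CPM in MYCN. Plxnd1, a semaphorin receptor known from endothelium, averaged 71.4 ± 7.33 CPM in myrAKT against 35.7 ± 10.6 CPM in MYCN (edgeR adjusted p = 0.00145, log2 fold change 1.00 ± 0.21). The endothelial list as a whole had a median log2 fold change of 4.93. The part of endothelial cells in the level of plxnd1 was not tested.

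Neuropilins are the co-receptors that bind class 3 semaphorins and vascular endothelial growth factor. Nrp2a was at 24.3, 33.5, 27.4 and 35.7 CPM in myrAKT libraries, against 479.6, 374, 269.7 and 206 CPM in MYCN libraries (log2 fold change -3.46 ± 0.28, edgeR adjusted p = 2.67e-06). Nrp1a was at 95.7, 109.5, 111 and 126 CPM in myrAKT libraries, against 286, 304, 233 and 137 CPM in MYCN libraries (log2 fold change -1.12 ± 0.23, edgeR adjusted p = 0.00143). Nrp1b was at 65.0, 73.8, 74.6 and 85.2 CPM in myrAKT libraries, against 58.0, 61.3, 47.1 and 28.4 CPM in MYCN libraries (log2 fold change 0.62 ± 0.22, edgeR adjusted p = 0.0284). Nrp2a stood far apart between the groups, nrp1a and nrp1b only just, MYCN 4 lying close to the myrAKT range for nrp1a. The call of nrp1b ended without myrAKT 2 (adjusted p = 0.051), myrAKT 3 (0.0534), myrAKT 4 (0.0726) or MYCN 3 (0.0522). Nrp2b, at 35.3 ± 1.70 CPM in myrAKT against 39.5 ± 9.37 CPM in MYCN, did not pass (edgeR adjusted p = 0.412), and its log2 fold change of -0.16 was 0.22 with library totals. Over the 10 plexins and neuropilins 5 rose, 4 fell and 1 did not pass, a called share of 90% against 76.0% of all tested genes.

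Of the 8 ephrins tested, the membrane-tethered ligands of the Eph receptors, 3 fell, 2 rose and 3 did not pass. Their called share of 62.5% lay under the 76.0% of all tested genes. Their median log2 fold change was -0.26 but 0.10 with library totals. Efna2a was at 4.55, 5.12, 4.69 and 7.25 CPM in myrAKT libraries 1 to 4, against 35.8, 33.1, 28.6 and 33.4 CPM in MYCN libraries 1 to 4. Efna3b was at 0.821, 0.312, 1.48 and 1.11 CPM in myrAKT libraries, against 8.86, 9.08, 7.61 and 5.90 CPM in MYCN libraries. Efnb2b was at 1.03, 1.39, 2.72 and 2.28 CPM in myrAKT libraries, against 0.165, 0.149, 0.123 and 0.0480 CPM in MYCN libraries. These 3 separated the groups with wide gaps, efna2a and efna3b low in myrAKT and efnb2b high. In MYCN efnb2b had only 2 to 7 counts a library. Log2 fold changes were -2.61 ± 0.18 for efna2a (edgeR adjusted p = 1.01e-06), -3.10 ± 0.36 for efna3b (edgeR adjusted p = 3.57e-05) and 3.90 ± 0.49 for efnb2b (edgeR adjusted p = 3.43e-05). Efnb1 averaged 7.69 ± 2.43 CPM in myrAKT against 16.1 ± 1.94 CPM in MYCN (edgeR adjusted p = 0.00198). Efna1a, known from endothelium and epithelium, was at 8.33, 6.01, 12.8 and 10.99 CPM in myrAKT libraries, against 7.66, 4.27, 4.68 and 3.48 CPM in MYCN libraries; its call (edgeR adjusted p = 0.0198) ended without myrAKT 3 (adjusted p = 0.0626) or MYCN 2 (0.0527). Efnb2a, the marker of arterial endothelium, averaged 4.47 ± 2.01 CPM in myrAKT against 4.19 ± 1.06 CPM in MYCN and did not pass (log2 fold change 0.08, edgeR adjusted p = 0.844).

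Of the 8 Eph receptor tyrosine kinases 5 fell, 2 rose and ephb3a did not pass. Over all tested genes 38.4% were called lower and 37.6% higher. Epha4b, which held most of the Eph counts, was at 26.4, 41.1, 54.5 and 57.6 CPM in myrAKT libraries, against 139.9, 123, 86.8 and 91.9 CPM in MYCN libraries (log2 fold change -1.30 ± 0.26, edgeR adjusted p = 0.00112). Epha7 was at 1.88, 1.62, 2.99 and 3.77 CPM in myrAKT libraries, against 30.4, 14.3, 6.87 and 14.7 CPM in MYCN libraries (edgeR adjusted p = 4.11e-04). Ephb2b was at 1.39, 0.833, 2.72 and 2.60 CPM in myrAKT libraries, against 15.1, 9.77, 6.60 and 8.21 CPM in MYCN libraries (edgeR adjusted p = 3.21e-04). These receptors, whose mammalian counterparts act in axon mapping, were all lower in every myrAKT library than in any MYCN library. Epha4a, at 0.412 ± 0.111 CPM in myrAKT against 0.839 ± 0.376 CPM in MYCN, passed barely (edgeR adjusted p = 0.0479) and did not pass under 12 of the 14 alternatives that tested it, at adjusted p between 0.0505 and 0.258.

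The 2 Eph genes that rose were epha2a and ephb4b. Epha2a, related to the epithelial Eph receptor of mammals, was at 3.15, 3.95, 5.77 and 4.94 CPM in myrAKT libraries, against 0.189, 0.299, 0.370 and 0.120 CPM in MYCN libraries (log2 fold change 4.19 ± 0.36, edgeR adjusted p = 4.45e-06). Ephb4b was at 4.93, 3.75, 8.42 and 5.45 CPM in myrAKT libraries, against 0.0942, 0.209, 0.394 and 0.0720 CPM in MYCN libraries (log2 fold change 4.87 ± 0.46, edgeR adjusted p = 7.44e-06, and 5.56 without MYCN 3). Ephb4a, its duplicate and the known marker of venous endothelium, was at 13.2, 14.9, 20.1 and 18.0 CPM in myrAKT libraries, against 40.7, 39.96, 28.6 and 22.0 CPM in MYCN libraries. It thus ran opposite to ephb4b, with a log2 fold change of -0.99 ± 0.22 (edgeR adjusted p = 0.00255) that did not pass with library totals (adjusted p = 0.0506). Endothelial markers rose in the same libraries, 16 of 16, with log2 fold changes of 1.65 to 6.71. The largest was that of kdrl, a receptor of vascular endothelial growth factor, at 66.0 ± 21.8 CPM in myrAKT against 0.633 ± 0.249 CPM in MYCN. The part of endothelial cells in the Eph results was not tested.

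Duplicate genes, written a and b, descend from the genome duplication of teleost fish. The ratio of the counts of the a copy to those of the b copy within a library does not depend on how libraries are scaled. Both copies were tested in 9 pairs, and in 8 of them the ratios of the groups did not overlap (exact two-sided permutation test of the log2 ratio, p = 0.0286 for each of the 8, the smallest that 4 against 4 libraries allow, and 0.0322 adjusted over the 9 pairs). Of single tested genes 72.5% separated the groups, and no such share was taken for ratios of other gene pairs. In 3 pairs the copies were called in opposite directions: sema3g, ephb4 and nrp1. Each copy of these 3 pairs by itself separated the groups, so the separation of their ratios was fixed in advance and adds no support. For nrp2, efnb2 and sema3a, the fold gap between groups of nrp2a, efnb2b and sema3aa exceeded the other copy's fold range over all 8 libraries. The separation of these ratios thus also followed from the single genes and adds no support. The adjustment over the 9 pairs includes such fixed outcomes. Under the 15 alternatives run both calls held throughout for sema3g, whereas that of ephb4a ended with library totals (edgeR adjusted p = 0.0506) and that of nrp1b under 5 alternatives (edgeR adjusted p between 0.051 and 0.0726). The sema3ga to sema3gb ratio was 3.76, 4.67, 4.50 and 4.92 in myrAKT libraries 1 to 4, against 0.0120, 0.0349, 0.0468 and 0.0309 in MYCN libraries 1 to 4. The ephb4a to ephb4b ratio was 2.68, 3.98, 2.38 and 3.30 in myrAKT libraries, against 432, 191, 72.6 and 306 in MYCN libraries, where the b copy had only 3 to 16 counts a library. For nrp2a to nrp2b the ratio was 0.660, 0.923, 0.829 and 1.02 in myrAKT libraries, against 9.80, 8.18, 7.99 and 6.995 in MYCN libraries. By counts, sema3ga led in every myrAKT library and sema3gb in every MYCN library, ephb4a led in all 8 libraries, and the nrp2 copies were near equal in myrAKT while nrp2a led in MYCN. For sema3a both copies rose, sema3aa by 5.29 and sema3ab by 1.70 on the log2 scale, the groups of sema3ab overlapping. The difference of mean log2 ratios of this pair was 3.54. The ephrin pair efnb2 moved the other way by -3.81. Efnb2b, with only 2 to 7 counts a library in MYCN, had risen, and efnb2a had missed the threshold. The exception was epha4, whose log2 ratio was -6.70 ± 0.87 in myrAKT and -7.11 ± 0.79 in MYCN (exact two-sided permutation p = 0.486).

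**Figure D5:**
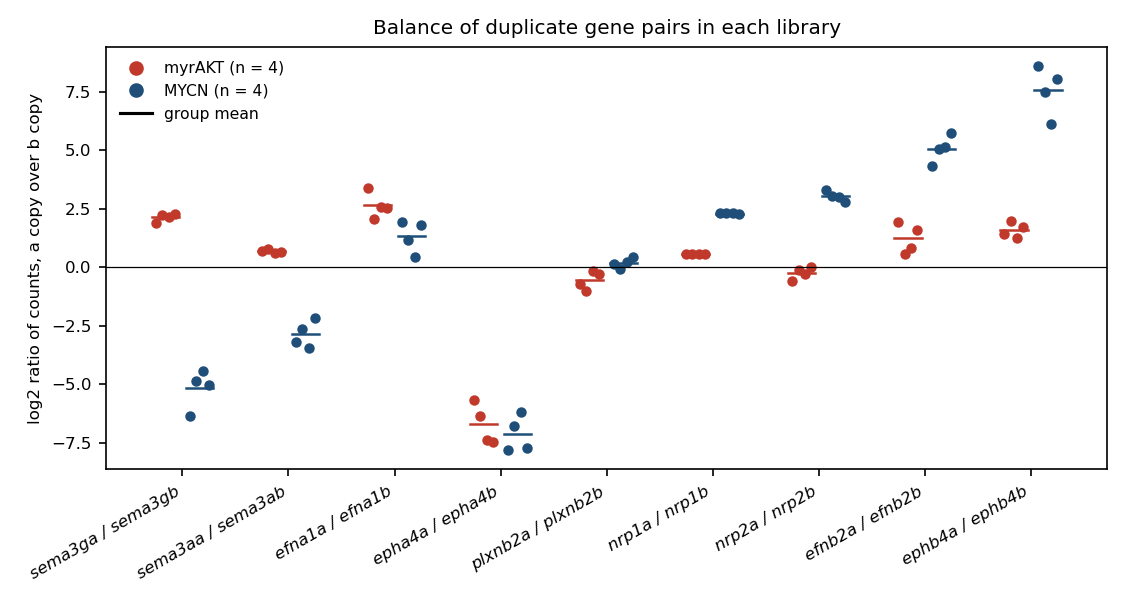
Log2 ratio of the counts of the a copy to the b copy for the 9 duplicate pairs with both copies tested; each point is a library, red myrAKT and blue MYCN, the line is the group mean, and 0.5 was added to each count. The groups are apart in every pair but epha4, and the sema3g ratio lies above 0 in myrAKT and below 0 in MYCN.

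The nrp1 pair varied least. Its nrp1a to nrp1b ratio was 1.47, 1.48, 1.49 and 1.48 in myrAKT libraries, against 4.94, 4.96, 4.94 and 4.83 in MYCN libraries. The SD of its log2 ratio was 0.006 in myrAKT, where counting error alone would give 0.034, and 0.018 in MYCN, where it would give 0.038. Over the other 8 pairs the SD was between 0.080 and 1.05, and it was under the counting error for sema3a in myrAKT and efnb2 in MYCN. The treatment of reads that fit both copies is not given in the sources used here, so counts of such pairs are uncertain.

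Within groups, guidance genes varied more than the typical gene: the median SD of log2(CPM + 0.5) was 0.44 for the 55 tested members in myrAKT against 0.18 for all tested genes, and 0.42 in MYCN against 0.28, with no matching for expression level. The same libraries stood at the ends for many of them. In myrAKT, library 4 was the highest of its group for 29 of the 55 members (52.7%, against 27.0% of all tested genes). Library 1 was the lowest there for 29 (52.7%, against 26.5% of all tested genes). In MYCN, library 4 was the lowest for 39 (70.9%, against 38.6% of all tested genes) and library 1 the highest for 28 (50.9%, against 23.1%). The summed CPM of all members was 752.0, 827.9, 1016 and 1136 in myrAKT libraries 1 to 4, and 2580.0, 2435, 1864 and 1394 in MYCN libraries 1 to 4. Sympathoadrenal and neuronal markers were at 2123, 2960.0, 3859 and 4664 CPM in myrAKT libraries 1 to 4. In MYCN libraries 1 to 4 those markers were at 11310.0, 10400.0, 9684 and 11000.0 CPM. Erythroid markers were at 10330.0, 10480.0, 4380.0 and 5243 CPM in the same myrAKT libraries. There stromal markers were at 476.6, 473.4, 581.6 and 635.5 CPM, and endothelial markers at 798.9, 783, 971.9 and 885.8 CPM. Kidney tubule markers were at 2817, 1237, 4413 and 3574 CPM, and glial markers at 101.5, 108.6, 94.43 and 93.78 CPM. Leukocyte markers were at 21450, 20620, 18340 and 17440 CPM, and lymphocyte markers at 652.1, 663.4, 453.4 and 427.8 CPM. In MYCN libraries 1 to 4 leukocyte markers were at 390.1, 559.2, 703.7 and 1194, and erythroid markers at 158.2, 150.6, 142.6 and 42.68 CPM. Lymphocyte markers there were at 68.55, 57.53, 64.45 and 40.66, and endothelial markers at 25.72, 31.66, 42.9 and 23.89 CPM. Stromal markers were at 40.87, 51.73, 58.15 and 22.89 CPM in these MYCN libraries. Kidney tubule markers were at 26.67, 35.12, 53.54 and 38.82, and glial markers at 28.93, 28.55, 42.43 and 26.32 CPM there. The part of any cell type in the guidance sums was not tested. With TMM factors the groups did not overlap in the sum of all members. With library totals they did, MYCN 4 being at 1041 CPM against 827.1 to 1382 CPM in myrAKT libraries.

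Of 20 guidance genes listed for a known role in vessels, 17 had a row and were tested. Among these 17, 10 rose, 4 fell and 3 did not pass, a called share of 82.4% near the 76.0% of all tested genes. The list was a choice and is not complete, leaving out sema3e, for example, so these counts and the median depend on it. The 4 that fell were nrp1a, nrp2a, ephb4a and sema3gb. The median log2 fold change of the 17 was 0.92, against 4.93 for the 16 endothelial markers. Summed CPM of the 17 was 378.5 to 458.0 in myrAKT libraries and 499.4 to 1082 in MYCN libraries. Nrp2a and nrp1a, which fell, weighed most in the MYCN sum, at means of 332 and 240 CPM, so its order does not describe the whole list. The part of endothelial cells in these levels was not tested.

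Beyond the ligands and receptors, cytoplasmic proteins that carry guidance signals to actin and microtubules went both ways. Of the 50 with a test, 22 fell, 16 rose and the other 12 did not pass, a called share of 76.0% that equals the background, and their median log2 fold change of -0.07 was 0.30 with library totals. Ablim3, an actin-binding protein, averaged 2.50 ± 0.627 CPM in myrAKT against 36.7 ± 3.44 CPM in MYCN (edgeR adjusted p = 1.73e-07, log2 fold change -3.89 ± 0.19). Rnd1, a small GTPase that binds plexins, averaged 1.94 ± 0.551 CPM in myrAKT against 44.3 ± 4.45 CPM in MYCN (edgeR adjusted p = 1.75e-07). Vav3b, of the exchange factors that act below Eph receptors and also in leukocytes, averaged 15.3 ± 1.83 CPM in myrAKT against 0.399 ± 0.152 CPM in MYCN, and vaspa, an actin regulator, 170.5 ± 12.4 CPM in myrAKT against 4.45 ± 1.65 CPM in MYCN. Leukocyte markers were at 17440.0 to 21450.0 CPM in the same myrAKT libraries and 390.1 to 1194 CPM in the MYCN libraries, and their part was not tested. Other cues, receptors and adhesion molecules numbered 24 with a test, of which 12 fell, 7 rose and 5 did not pass. Their called share of 79.2% lies near the 76.0% of all tested genes. Nadl1.1, a cell adhesion molecule of the L1 type, averaged 5.13 ± 1.73 CPM in myrAKT against 76.3 ± 25.4 CPM in MYCN, and rtn4rl1b, related to the Nogo receptor, 0.584 ± 0.204 CPM in myrAKT against 8.92 ± 1.77 CPM in MYCN. Rgmd, a repulsive guidance molecule, rose with 23.7 ± 0.952 CPM in myrAKT against 8.56 ± 1.08 CPM in MYCN, as did boc, a receptor of hedgehog ligands with a part in commissural axon guidance, with 3.501 ± 0.625 CPM in myrAKT against 0.203 ± 0.146 CPM in MYCN.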

How the data were processed

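The deposited values are raw counts of reads for each gene symbol and library, made by the authors and unnormalized: the table holds whole numbers with unequal totals. The submitters' processing notes name GRCz10 as the build and list HTSeq 0.6.1 (counting), TopHat2 2.1.1 (alignment), Trim Galore 0.4.4, FastQC 0.11.5, SAMtools 1.5 and edgeR. Strand setting, annotation and the treatment of shared reads: not given in the sources used here. All columns matched a sample by name, and libraries of 1 group differed beyond sampling noise (chi-square per degree of freedom 21.2 to 286 over 12 pairs). MYCN pairs that held MYCN 4 were at 235 to 286, and the other MYCN pairs at 50.8 to 125. All 62 symbols are current or older symbols in a RefSeq table of assembly GRCz12tu.

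The quasi-likelihood F test of edgeR 4.0.16 (R 4.3.3; robust, two-sided) compared the groups after filterByExpr, with TMM factors of 1.10 to 1.22 in myrAKT and 0.747 to 1.04 in MYCN, and p-values were adjusted by Benjamini-Hochberg over 12126 genes. The script was tested on simulated data. DESeq2 1.42.0 was an alternative, beside 3 scalings, 2 filters, a replicate block and leaving out each library.

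Members and gene lists were chosen with earlier results of these data known. Of 254 listed symbols 196 had a row, 13 under another symbol. Values by library were printed for 30 genes: in each family, at most 2 called genes per direction by adjusted p, the member with the highest mean CPM, and both copies of duplicates called in opposite directions. Ntn2 and the other members given by group means were named after their values were seen. From the pathway lists 2 genes per direction are named. The duplicate ratios were added after the data were seen.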

Additional observations from a re-analysis of the deposited data

Results flagged for a closer look

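Among the 30 genes given by library, 60 groups of 4 were examined for a library far from the others, and chance flags about 1 in 20 such groups. Only sema3gb in myrAKT was flagged: library 2 was at 2.41 CPM, and the nearest other myrAKT library at 3.47 CPM, a gap of 0.863 of the group's whole range. Every MYCN library was at 40.4 CPM or above.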

How the results depend on the processing

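The numbers of guidance genes called stayed within 20 to 25 in each direction under every alternative run, with 25 higher and 21 lower under library totals and 23 and 23 under DESeq2. Leaving out 1 library in turn gave 20 to 23 higher and 23 to 25 lower. By family, library totals gave 2 higher genes of the netrin, Dcc and Unc5 group, unc50 being the second (log2 fold change 0.60, edgeR adjusted p = 0.0108), and 3 lower Eph receptors in place of 5. Testing all genes with a count also gave 2 higher genes in the netrin group, a construction that adds low genes. Leaving out single libraries gave 1 to 2 higher ephrins. The reversed log2 fold changes were all of genes that did not pass: efnb3b at 0.30 with library totals, and at -0.325 to 0.066 as 1 library was left out, with 0.011 without myrAKT 3 and 0.066 without MYCN 2; efnb2a at -0.195 to 0.328 as 1 library was left out, with -0.195 without myrAKT 4, -0.041 without MYCN 4 and 0 without MYCN 1; and nrp2b at 0.22 with library totals. The cause was not tested. The labels do not say that the numbers of the replicates pair the samples. Same-numbered libraries had correlations of deviations of -0.128, 0.008, 0.12 and -0.176, and not every library correlated best with its own number. Such correlations cannot settle whether samples were paired. With the replicate block 21 guidance genes were higher and 22 lower, with nrp1b (adjusted p = 0.0516), slit1a (0.0619) and epha4a (0.0505) no longer passing and no other call changed. Depth limits dcc, efnb2b, epha2a, ephb4b, sema3aa, sema3d and sema3fa, among others, which have few or no counts in 1 group.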
